A study of Mus musculus with 6 samples.

Results

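SLAM family receptors and their adaptor SAP were followed in thymocyte RNA libraries of mice with floxed Tox alleles, with and without a Cre recombinase. The members are 7 genes chosen by symbol, 6 receptors (Slamf1, Slamf6, Slamf7, Ly9, Cd84 and Cd48) and the adaptor gene Sh2d1a, out of 22298 genes listed in the deposited tables. All 7 were listed and all 7 passed the filter on low counts that left 14121 genes for testing. RNA was sequenced from 6 samples of sorted C57BL/6 thymocytes, untreated and labelled double-negative in their titles and as the DN2 stage in the protocol. The Toxf/fPdcd1Cre samples (replicates 1 and 2 at 3 weeks of age, replicate 3 at 4 weeks) carry floxed Tox alleles and a Cre whose name refers to Pdcd1, which encodes PD-1. The Toxf/f samples (replicates 1 and 2 at 3 weeks, replicate 3 at 4 weeks) carry the floxed Tox alleles, and their labels name no Cre. The labels say neither in which cells this Cre is active nor whether each sample is a different mouse. P-values therefore reflect library-to-library spread, which cannot be read throughout as spread between mice. That spread mixes ages of 3 and 4 weeks within each genotype, so it is not technical alone. Toxf/f replicates 1 and 2 had the same values throughout and the same column name, numbered 2, and were counted as 1 library. The comparison is thus of 3 Toxf/fPdcd1Cre libraries with 2 Toxf/f libraries.

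SLAM receptors are cell surface proteins of blood cells, and most of them bind a second copy of themselves on a neighbouring cell. Their cytoplasmic tails carry tyrosine motifs that recruit SAP, a small SH2 domain protein encoded by Sh2d1a, and SAP brings in the kinase Fyn. In the mouse thymus, SLAMF1 and SLAMF6 on cortical double-positive thymocytes bind their own kind on neighbouring thymocytes while innate-like lineages such as invariant natural killer T cells are selected, and those lineages need SAP. CD48 differs from the others in having a lipid anchor and no cytoplasmic tail, and it binds CD2 and CD244.

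The 6 receptor genes form a cluster of 365 kb on chromosome 1 (GRCm38, GENCODE M21) from 171588624 to 171953170, in the order Ly9, Slamf7, Cd48, Slamf1, Cd84, Slamf6, while Sh2d1a lies on the X chromosome from 42502453 to 42529330. Slamf7 and Ly9 are read from the minus strand and the other members from the plus strand. RefSeq promoter windows of 300 bases (GRCm38.p6) were found for 5 of the 7 members. The windows of Slamf7 (chr1:171648950-171649249, minus strand) and Slamf6 (chr1:171917212-171917511, plus strand) are printed. They were picked because these members did not overlap between genotypes in scaled counts or in FPKM, Slamf7 lower and Slamf6 higher in Toxf/fPdcd1Cre. In either direction 26.2% of all tested genes did not overlap in scaled counts and 24.1% in FPKM. Slamf6 did not pass the test (adjusted p = 0.555, edgeR). Capitals mark E-boxes, the letters CANNTG bound by E proteins and other helix-loop-helix factors.
Slamf7: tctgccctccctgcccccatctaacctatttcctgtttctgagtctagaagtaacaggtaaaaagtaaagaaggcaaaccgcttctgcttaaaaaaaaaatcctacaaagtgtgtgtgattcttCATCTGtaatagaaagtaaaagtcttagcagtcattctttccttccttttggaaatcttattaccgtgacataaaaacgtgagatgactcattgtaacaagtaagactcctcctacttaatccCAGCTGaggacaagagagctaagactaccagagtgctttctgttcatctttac
Slamf6: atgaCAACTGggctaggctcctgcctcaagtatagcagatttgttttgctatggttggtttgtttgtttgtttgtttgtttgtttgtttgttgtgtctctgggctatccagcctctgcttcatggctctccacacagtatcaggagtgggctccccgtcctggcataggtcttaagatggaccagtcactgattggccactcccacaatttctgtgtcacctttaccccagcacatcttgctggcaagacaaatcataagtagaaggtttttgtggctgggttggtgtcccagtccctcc
The Slamf7 window held 2 E-boxes and the Slamf6 window held 1. The windows of Slamf1, Cd84 and Cd48 held 2, 1 and 1. An E-box on either strand occurs in 72.3% of the 32851 mouse promoter windows. The RUNX letters TGTGGT, found on either strand in 16.8% of windows, occurred in those of Cd84 and Cd48 and in neither printed window. In Cd48 the RUNX letters overlapped the E-box. The ETS letters AGGAAG, in 35.4% of all windows, occurred in those of Slamf7, Slamf1, Cd84 and Cd48 and not in that of Slamf6. These matches describe letters only. The RefSeq start of Slamf7 lies inside the gene span that GENCODE gives (171632403 to 171653035), and that of Slamf6 lies before the GENCODE start (171917515).

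The libraries held 14245492 to 16199195 estimated counts each. Tox itself, the targeted gene, had 19.2, 16.4 and 13.8 CPM (counts scaled to a common library size) in Toxf/fPdcd1Cre libraries, against 121 and 105 CPM in Toxf/f libraries. Its log2 fold change was -2.78 ± 0.161 (SE; adjusted p = 6.72e-06, edgeR's quasi-likelihood test). Of the coreceptor genes of double-positive thymocytes, Cd4 stood at 718 to 982 CPM in Toxf/fPdcd1Cre and 845 to 909 CPM in Toxf/f libraries, and Cd8a at 1626 to 2017 CPM in Toxf/fPdcd1Cre and 1395 to 1851 CPM in Toxf/f libraries. Such mRNA levels put in doubt that the cells lacked CD4 and CD8, though these libraries do not measure the surface proteins. Double-negative is used here as a label only. In these bulk libraries fewer cells of a type and less RNA per cell cannot be told apart. Toxf/fPdcd1Cre replicate 1 stood apart by 1 count of the chromosome Y gene Ddx3y, against 843 to 1354 in the other 4 libraries. Without it 606 genes were called, against 232 with all libraries.

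The members spanned a wide range of levels per transcript length. SAP mRNA was the most abundant, with a mean Sh2d1a level of 169.7 ± 14.2 FPKM (fragments scaled by transcript length and library size; SD, n = 3) in Toxf/fPdcd1Cre and 149 ± 30.4 FPKM (SD, n = 2) in Toxf/f. Among all listed genes Sh2d1a ranked 418 by mean FPKM and Slamf6 ranked 725. Slamf6, which encodes Ly108, averaged 113 ± 4.86 FPKM in Toxf/fPdcd1Cre and 90.6 ± 6.14 FPKM in Toxf/f. Cd48 followed at 64.0 ± 5.41 FPKM in Toxf/fPdcd1Cre and 73.9 ± 0.127 FPKM in Toxf/f. Then came Cd84 at 47.4 ± 3.87 FPKM in Toxf/fPdcd1Cre and 46.2 ± 8.27 FPKM in Toxf/f, and Ly9 at 35.2 to 39.7 FPKM in Toxf/fPdcd1Cre and 42.0 to 43.7 FPKM in Toxf/f. Slamf1, which encodes CD150, averaged 22.0 ± 2.32 FPKM in Toxf/fPdcd1Cre and 24.5 ± 3.15 FPKM in Toxf/f. Slamf7, which encodes CRACC, was the scarcest member and ranked 8625 among listed genes. Both genotypes had this same order, and the ranges of neighbours in it overlapped in 1 place, between Cd84 and Ly9 in Toxf/f. Slamf6 made up 38.1% to 40.7% of the summed FPKM of the 6 receptors in Toxf/fPdcd1Cre libraries and 30.1% to 33.3% in Toxf/f libraries, while Slamf7 made up 0.893% to 1.498% in Toxf/fPdcd1Cre and 2.40% to 2.96% in Toxf/f.

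**Figure D1:**
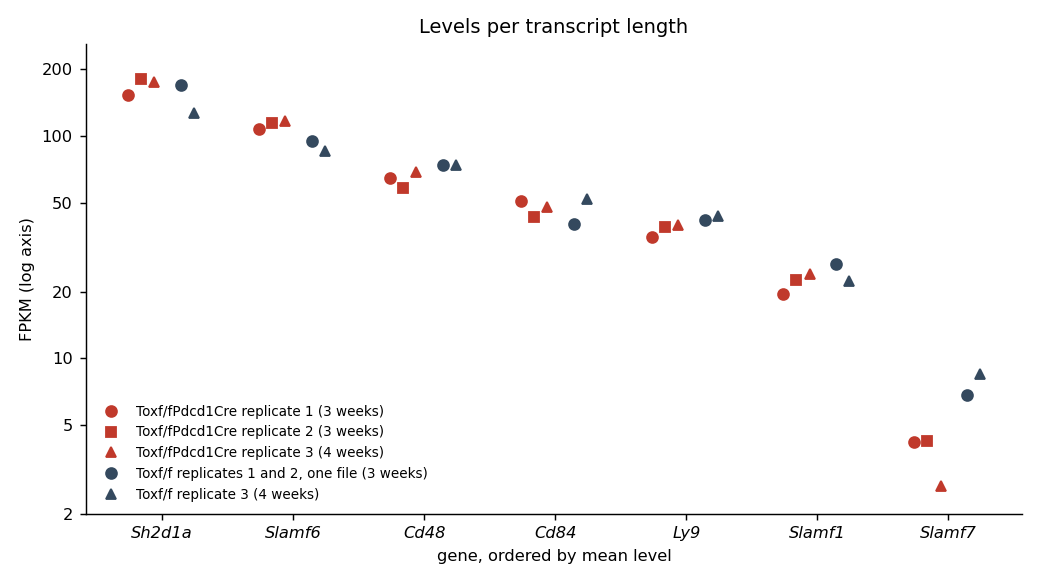
FPKM of the 7 members in each library on a log axis, ordered by mean level, with Toxf/fPdcd1Cre (red) left of Toxf/f (dark). Sh2d1a lies highest at 127 to 181 FPKM and Slamf7 lowest at 2.68 to 8.48 FPKM. In FPKM the genotypes do not overlap for Slamf7, Ly9 and Cd48 (lower, as for 15.9% of all tested genes) and Slamf6 (higher, as for 8.17%; 24.1% in either direction).

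Slamf7 (ENSMUSG00000038179) fell in Toxf/fPdcd1Cre libraries, and it was the only member past the threshold. It encodes a self-binding receptor known from natural killer cells, B lineage cells, dendritic cells and activated T cells, and in mouse natural killer cells it signals through the SAP relative EAT-2. Slamf7 had 9.91, 10.3 and 9.29 CPM in Toxf/fPdcd1Cre libraries, against 16.01 and 20.6 CPM in Toxf/f libraries, from 145, 161 and 135 counts in Toxf/fPdcd1Cre and 250 and 342 counts in Toxf/f. Every Toxf/fPdcd1Cre library lay below both Toxf/f libraries, with means of 9.82 ± 0.500 CPM (SD, n = 3) in Toxf/fPdcd1Cre and 18.3 ± 3.25 CPM (SD, n = 2) in Toxf/f. The level was 53.7% of that in Toxf/f, a log2 fold change of -0.90 ± 0.193 (SE) with a 95% interval of -1.32 to -0.47 (adjusted p = 0.0415, edgeR). An exact permutation test of its CPM, two-sided, gave p = 0.1, the lowest that 3 against 2 libraries allow. Of all tested genes 1.64% were called, 1.51% as lower and 0.135% as higher. At an unadjusted p under 0.05 Slamf7 was again the only member, against 7.26% of all tested genes lower and 3.08% higher. No member was called as higher with edgeR, and DESeq2 and limma-voom likewise called Slamf7 as lower and no member as higher. Across the 7 members the median log2 fold change was -0.098, against 0.025 over all tested genes.

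The call of Slamf7 was close to the threshold and held in 8 of 17 alternatives to the processing. The log2 fold change was between -1.06 and -0.70 in all 17. The 8 include a fit that counted the identical Toxf/f files as separate libraries, which repeats 1 library. They also include both replicate blocks, which fit nearly as many terms as there are libraries. The block with the shared library as number 2 was chosen after the data were seen. Adjusted p was 0.0712 without Toxf/fPdcd1Cre replicate 2, 0.164 without Toxf/fPdcd1Cre replicate 3, 0.125 without the library shared by Toxf/f replicates 1 and 2 and 0.502 without Toxf/f replicate 3 (edgeR). Without Toxf/fPdcd1Cre replicate 1 the gene stayed past the threshold (adjusted p = 0.0401, edgeR). Within the mice of 3 weeks the difference of mean log2(CPM + 1) was -0.62, and within those of 4 weeks it was -1.07, with 1 Toxf/f library at each age and no test. On the deposited FPKM scale, Slamf7 had 4.19, 4.23 and 2.68 FPKM in Toxf/fPdcd1Cre, against 6.83 and 8.48 FPKM in Toxf/f. On raw totals 1 CPM of Slamf7 was worth 0.302 FPKM in Toxf/fPdcd1Cre replicate 3 and 0.398 to 0.426 FPKM in the other 4.

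**Figure D2:**
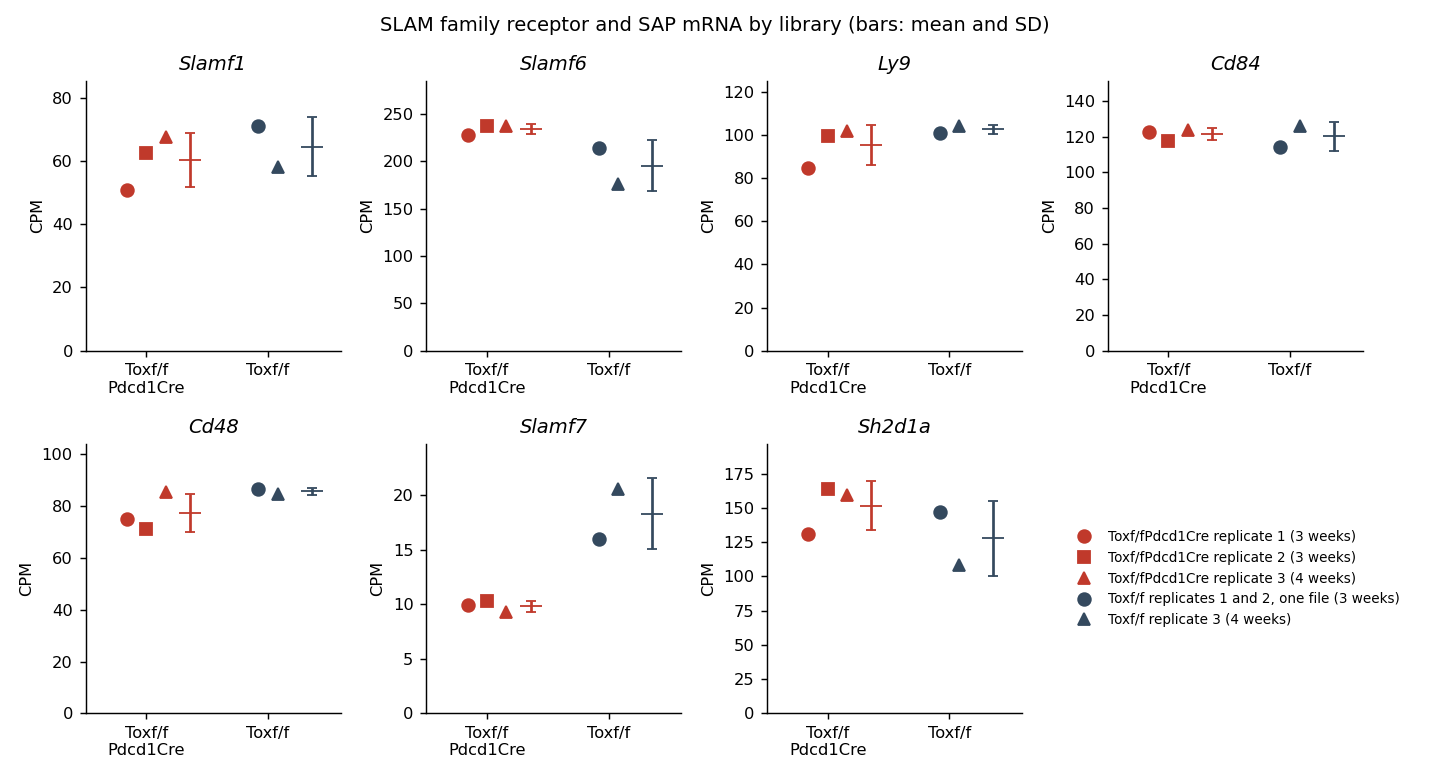
CPM of each member by library, from 0, with points for libraries and bars for the mean and SD of each genotype (Toxf/fPdcd1Cre left, Toxf/f right). The genotypes separate for Slamf7 (9.29 to 10.3 against 16.01 to 20.6 CPM) and Slamf6 (228 to 237 against 176 to 214 CPM) and overlap for the other 5 members. Of all tested genes 13.5% separate as lower and 12.6% as higher (26.2% in either direction).

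**Figure D3:**
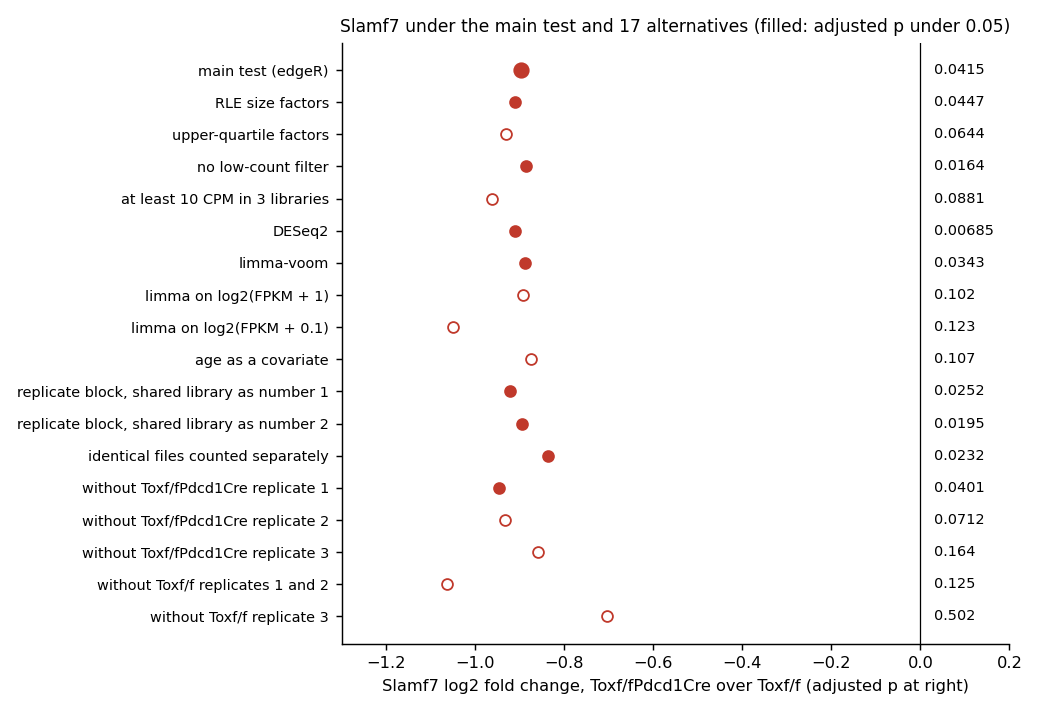
Log2 fold change of Slamf7 under the main test and 17 alternatives, with the adjusted p at the right and filled points where it is under 0.05. All estimates lie between -1.06 and -0.70, and 8 of the 17 alternatives pass. The 8 include the fit with the identical files counted separately and both replicate blocks.

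Marker lists of cell types, not all of them known to use Slamf7, are given beside it as summed CPM. The sums were not tested. The 6 dendritic cell markers summed to 41.7 to 75.8 CPM in Toxf/fPdcd1Cre and 167 to 199 CPM in Toxf/f libraries, with 2 of 6 lower and 0 higher. The 5 B cell markers summed to 40.0 to 49.6 CPM in Toxf/fPdcd1Cre and 51.7 to 74.8 CPM in Toxf/f, with 0 of 5 past the test. The 5 plasma cell markers summed to 218 to 230.1 CPM in Toxf/fPdcd1Cre and 258 to 276 CPM in Toxf/f, with 1 of 5 lower. Markers of mature T cells summed to 291 to 303 CPM in Toxf/fPdcd1Cre and 427 to 489.7 CPM in Toxf/f libraries, with 4 of 5 lower. Natural killer markers summed to 93.9 to 169 CPM in Toxf/fPdcd1Cre and 60.8 to 64.5 CPM in Toxf/f libraries and 2 of 4 tested members higher. Of these lists' markers, Klra8 of the natural killer list was at 0 in all libraries. Macrophage markers summed to 209 to 245 CPM in Toxf/fPdcd1Cre and 264 to 274 CPM in Toxf/f, with 0 of 5 past the test. Thymic epithelial markers summed to 923 to 1098 CPM in Toxf/fPdcd1Cre and 886 to 1035 CPM in Toxf/f, with 0 of 5. Early double-negative markers summed to 4824 to 5967 CPM in Toxf/fPdcd1Cre and 4577 to 4939 CPM in Toxf/f, with 1 of 6 lower, Cd44. Over all tested genes 1.51% were called as lower and 0.135% as higher. The part of these cells in the Slamf7 difference was not tested.

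The receptors that couple to SAP in thymocytes did not pass the test. Slamf6, one of the receptors of natural killer T cell selection, had 228, 237 and 237 CPM in Toxf/fPdcd1Cre libraries, against 214 and 176 CPM in Toxf/f libraries. In CPM the genotypes did not overlap, as was true of 1 member in each direction and of 13.5% of all tested genes lower and 12.6% higher (26.2% in all). Its log2 fold change was 0.26 ± 0.136 (SE) with a 95% interval of -0.036 to 0.56 (adjusted p = 0.555, edgeR), and the 3 Toxf/fPdcd1Cre libraries lay within a coefficient of variation of 2.30%. Slamf1, the other such receptor, had 50.9, 62.6 and 67.5 CPM in Toxf/fPdcd1Cre, against 71.1 and 58.0 CPM in Toxf/f. The lowest value was that of Toxf/fPdcd1Cre replicate 1, and the other libraries of both genotypes were interleaved (95% interval of the log2 fold change -0.44 to 0.25, adjusted p = 0.924, edgeR). The difference of mean log2(CPM + 1) of Slamf1 was -0.33 at 3 weeks and 0.21 at 4 weeks.

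Ly9, which encodes CD229, a receptor that restrains innate-like T cells in mice, had 84.6, 99.4 and 102 CPM in Toxf/fPdcd1Cre, against 101 and 104 CPM in Toxf/f. The genotypes overlapped, and the 95% interval of the log2 fold change was -0.39 to 0.18 (adjusted p = 0.890, edgeR). Ly9 overlaps Cd244a on the opposite strand, which stood at 2.17 to 3.07 CPM. The estimated counts of both genes were whole in every library. The strand setting is not given, nor how reads of the overlap were assigned. Cd84, a receptor of T cell to B cell contacts, had 123, 118 and 124 CPM in Toxf/fPdcd1Cre, against 114 and 126 CPM in Toxf/f. Its values lay inside the Toxf/f range, with a 95% interval of -0.26 to 0.28 and a log2 fold change of 0.014 whose sign turned to -0.018 with upper-quartile scaling (adjusted p = 0.987 with TMM scaling, edgeR).

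Cd48, the lipid-anchored ligand of CD2 and CD244, had 74.8, 71.2 and 85.4 CPM in Toxf/fPdcd1Cre, against 86.6 and 84.6 CPM in Toxf/f. The replicate of 4 weeks reached the Toxf/f range and the others lay below it, while in FPKM all Toxf/fPdcd1Cre values (58.2 to 68.9) lay below those of Toxf/f (73.8 and 74.0). The log2 fold change was -0.15 ± 0.133 (SE) with a 95% interval of -0.44 to 0.14 (adjusted p = 0.818, edgeR).

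The adaptor gene Sh2d1a had 131, 164 and 159.5 CPM in Toxf/fPdcd1Cre libraries, against 147 and 109 CPM in Toxf/f libraries. The lowest value was that of Toxf/f replicate 3 and the ranges overlapped. Its log2 fold change was 0.24 ± 0.162 (SE) with a 95% interval of -0.11 to 0.60 (adjusted p = 0.704, edgeR). It was 0.041 without Toxf/f replicate 3 and 0.49 without the shared library of Toxf/f replicates 1 and 2. The difference of mean log2(CPM + 1) was -0.0059 at 3 weeks and 0.55 at 4 weeks. Sh2d1a likewise overlaps Tenm1 on the opposite strand, which stood at 9.06 to 18.8 CPM, and the counts of Sh2d1a were whole only in Toxf/fPdcd1Cre replicate 3.

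Other genes of the pathway were taken from lists. Of 6 further SLAM family genes 5 were tested, and 0 passed with edgeR, DESeq2 or limma-voom. Slamf8 and Cd2 had an unadjusted p under 0.05 in edgeR, both lower, against 7.26% of all tested genes lower and 3.08% higher. In CPM 4 of the 5 did not overlap as lower and 0 as higher, against 13.5% and 12.6% of all tested genes. All 5 log2 fold changes were below 0, with a median of -0.71. Cd2, the partner of CD48 on T cells and the most abundant of them, had 129.7, 164 and 144 CPM in Toxf/fPdcd1Cre, against 192 and 196 CPM in Toxf/f. The Cd2 ranges did not overlap, and the log2 fold change was -0.41 ± 0.136 (SE; adjusted p = 0.231, edgeR). With a replicate block that took the shared Toxf/f library as number 1, Cd2 passed, at -0.51 (adjusted p = 0.0461, edgeR), and at -0.34 with that library as number 2 it did not (0.2003). The remaining tested ones were scarce, Cd244a, Slamf8, Slamf9 and the EAT-2 gene Sh2d1b1, with 0.574 to 4.82 CPM over all libraries. Slamf8, Slamf9 and Sh2d1b1 did not overlap either, each lower, and Cd244a did overlap. Sh2d1b1 had 1.23, 0.574 and 0.825 CPM in Toxf/fPdcd1Cre, against 2.24 and 1.45 CPM in Toxf/f, from 9 to 35 counts (adjusted p = 0.517, edgeR).

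Of 17 signalling genes downstream of SLAM receptors and SAP all were tested and 0 passed with edgeR, DESeq2 or limma-voom, with 7 log2 fold changes below 0, 10 above and a median of 0.067. Fyn, the kinase that SAP recruits, was the only one at an unadjusted p under 0.05 in edgeR, against 7.26% of all tested genes lower and 3.08% higher. It had 129, 150.2 and 139 CPM in Toxf/fPdcd1Cre, against 169.7 and 182 CPM in Toxf/f. Every Toxf/fPdcd1Cre value of Fyn was below both Toxf/f values, with a log2 fold change of -0.34 ± 0.128 (SE; adjusted p = 0.351, edgeR). Of the 17 signalling genes 2 did not overlap as lower and 1 as higher, against 13.5% and 12.6% of all tested genes. Lck, the related kinase of the T cell receptor complex, had the highest mean of the list, with 1351 ± 117 CPM (SD, n = 3) in Toxf/fPdcd1Cre and 1275 ± 90.9 CPM (SD, n = 2) in Toxf/f (adjusted p = 0.929, edgeR).

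Of 20 genes of SLAM-dependent innate-like T cells 18 were tested, with a median log2 fold change of -0.079. With edgeR and with DESeq2 1 was lower and 1 higher, and with limma-voom 1 was lower and 0 higher. Of all tested genes edgeR called 1.51% as lower and 0.135% as higher. At an unadjusted p under 0.05 in edgeR 5 of the 18 were lower and 2 higher, against 7.26% and 3.08% of all tested genes. Cd44, an adhesion receptor of activated and innate-like T cells, fell to 34.7, 27.2 and 29.6 CPM in Toxf/fPdcd1Cre, against 49.1 and 47.8 CPM in Toxf/f (log2 fold change -0.67 ± 0.145 SE, adjusted p = 0.0437, edgeR). The call ended without Toxf/fPdcd1Cre replicate 2 (adjusted p = 0.102), Toxf/fPdcd1Cre replicate 3 (0.175), the library of Toxf/f replicates 1 and 2 (0.305) or Toxf/f replicate 3 (0.333). Klrb1c, the natural killer receptor NK1.1, rose to 20.5, 10.6 and 8.46 CPM in Toxf/fPdcd1Cre, against 3.14 and 4.40 CPM in Toxf/f (log2 fold change 1.80 ± 0.374 SE, adjusted p = 0.0348, edgeR), and its call ended without the shared Toxf/f library (adjusted p = 0.381) or Toxf/f replicate 3 (0.307). It also missed the threshold with limma-voom (0.0653), and both genes missed it with upper-quartile factors, with age as a covariate and in either FPKM fit (adjusted p 0.0659 to 0.153 for Cd44 and 0.0878 to 0.120 for Klrb1c). Zbtb16, which encodes PLZF, the defining factor of natural killer T cells, had 18.4, 3.83 and 3.37 CPM in Toxf/fPdcd1Cre, against 2.24 and 6.45 CPM in Toxf/f. Toxf/fPdcd1Cre replicate 1 alone was high in Zbtb16, and the gene did not pass (adjusted p = 0.729, edgeR). Ccr9, a homing receptor of thymocytes, had the highest mean of the list, with 1130.5 ± 163 CPM (SD, n = 3) in Toxf/fPdcd1Cre and 1229 ± 12.05 CPM (SD, n = 2) in Toxf/f (adjusted p = 0.897, edgeR).

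**Figure D4:**
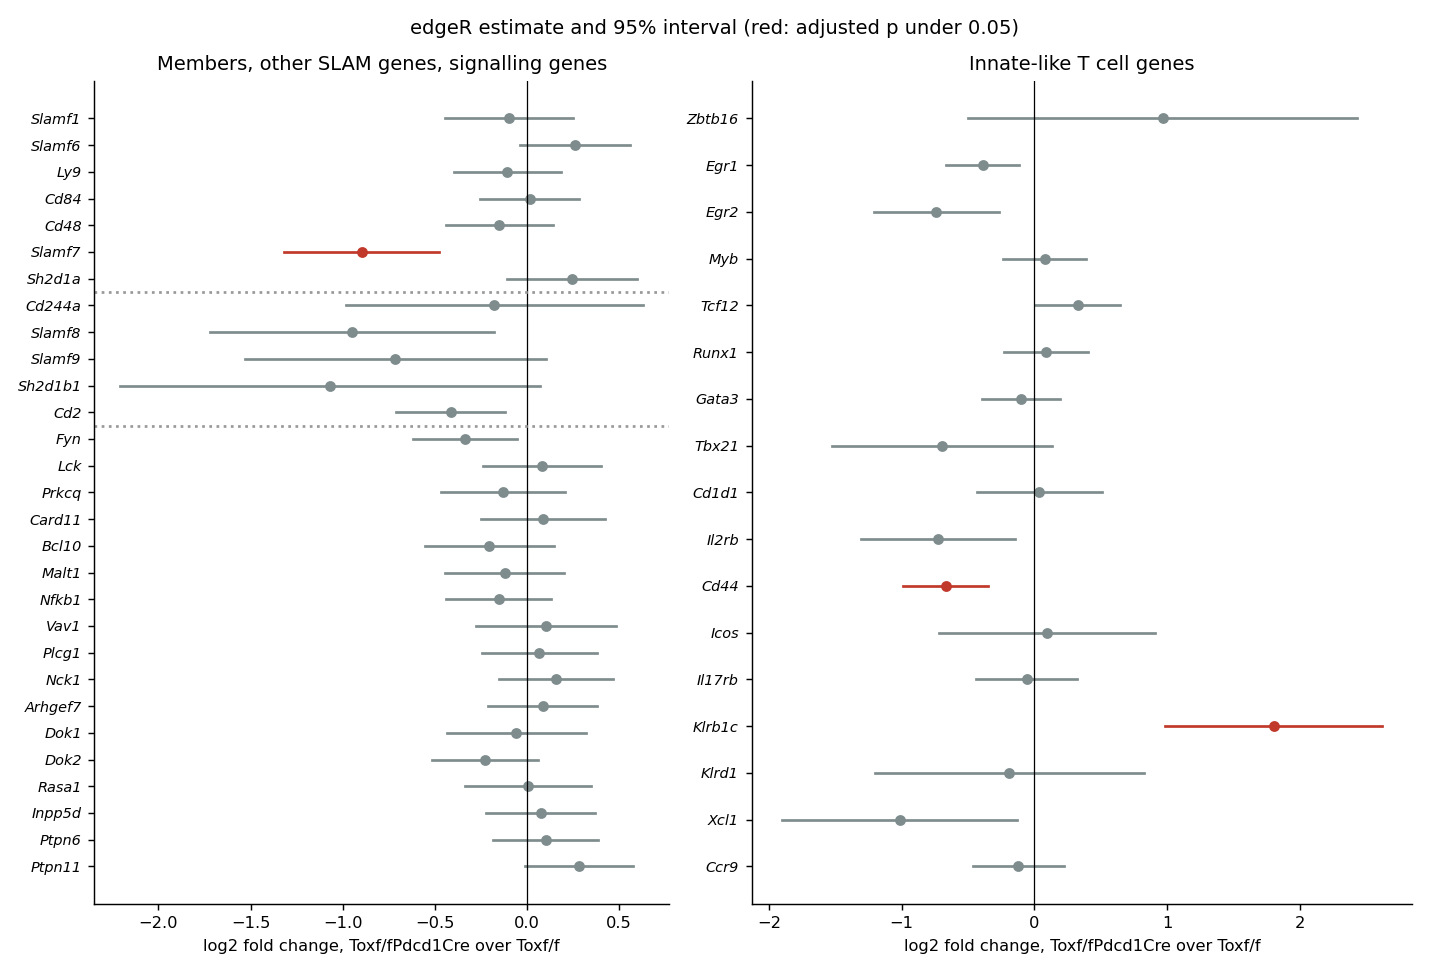
Log2 fold change, Toxf/fPdcd1Cre over Toxf/f, with its 95% interval for the 7 members, 5 other SLAM family genes and 17 signalling genes (left, split by dotted lines) and 17 of the 18 tested innate-like T cell genes (right). Slamf7 and Cd44 below 0 and Klrb1c above 0, in red, passed the test, against 1.51% of all tested genes lower and 0.135% higher.

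Within 500 kb of the cluster 41 further genes were listed and 32 tested, and 0 passed with edgeR or limma-voom, while DESeq2 called Pea15a. F11r and Pea15a had an unadjusted p under 0.05 in edgeR, both lower, against 7.26% of all tested genes lower and 3.08% higher. Without Toxf/fPdcd1Cre replicate 1 both passed, F11r at -1.12 (adjusted p = 0.0282, edgeR) and Pea15a at -0.63 (adjusted p = 0.0490, edgeR). That fit called 606 genes in all, against 232 in the main test. In the main test the log2 fold changes of the neighbours ran from -0.76 to 0.39, with 16 of 32 below 0 and a median of -0.00094. Ly9 and Cd48, the members on either side of Slamf7, stood at -0.11 ± 0.132 and -0.15 ± 0.133 (SE). The difference between Slamf7 and its neighbours was not tested as such. The count ratio of Slamf7 to Cd48 within a library was 0.132, 0.144 and 0.109 in Toxf/fPdcd1Cre, against 0.185 and 0.244 in Toxf/f.

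**Figure D5:**
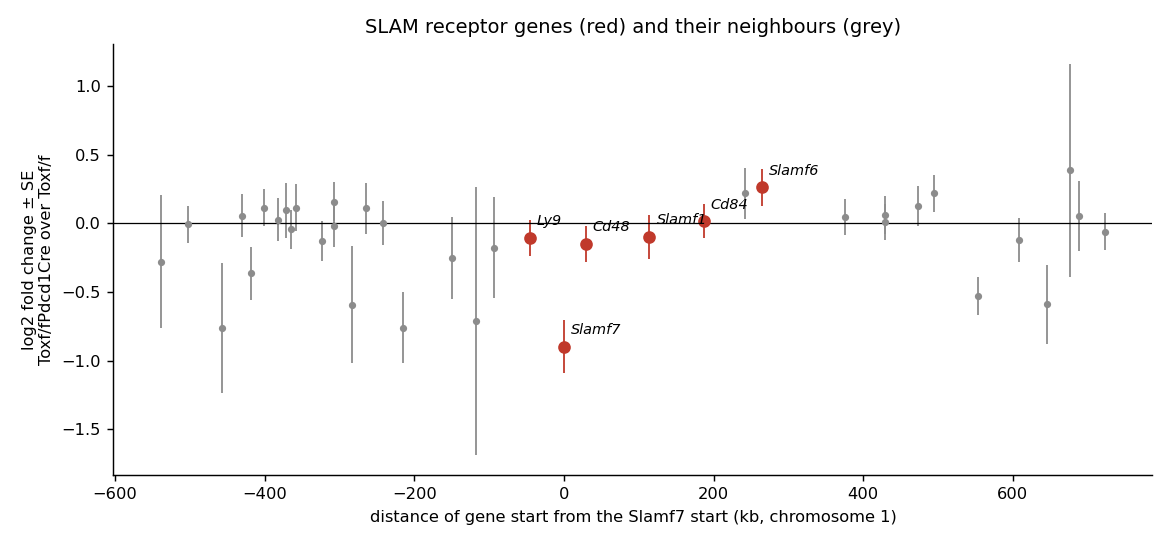
Log2 fold change ± SE of the 6 receptor genes (red) and 32 tested neighbours (grey) by distance of the gene start from that of Slamf7. Slamf7 lies at -0.90, below all neighbours, whose values run from -0.76 to 0.39, and the other 5 receptors lie between -0.15 and 0.26.

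Genes whose pattern over the 5 libraries was most like that of each member were found by the root-mean-square difference of centred log2(CPM + 1) among 9303 genes of at least 10 CPM. For Slamf7 the closest was Parp14, an ADP-ribosyltransferase gene, at 0.035, against a median of 0.471 over all candidates. Parp14 had 75.0, 72.6 and 66.9 CPM in Toxf/fPdcd1Cre, against 111 and 139.9 CPM in Toxf/f (log2 fold change -0.81 ± 0.138 SE, adjusted p = 0.0134, edgeR). That call ended without Toxf/fPdcd1Cre replicate 3 (adjusted p = 0.0602), without the shared library of Toxf/f replicates 1 and 2 (0.0552) and without Toxf/f replicate 3 (0.294). For the other members the closest pairs were Mmachc and Nek2 for Slamf6 (0.014 and 0.018), Mrps25 and Tomm34 for Slamf1 (0.026 and 0.028), Ripk1 and Kpna4 for Ly9 (both 0.015), Mfn1 and Tbck for Cd84 (0.014 and 0.015), Plod3 and Rap1a for Cd48 (0.013 and 0.027) and Dhrs3 and Mdm1 for Sh2d1a (0.028 and 0.042). Likeness over 5 libraries is a description.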

How the data were processed

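Per the file headers, each table the authors deposited lists genes with their estimated counts and FPKM; 8.81% to 9.84% of genes per library had an expected count that was not whole. The submitters' processing notes name fastp 0.18.0, HISAT2 and StringTie 1.3.1; the sources used here do not give the build, annotation, counting tool or strand setting. Coordinates come from GENCODE M21, matched by Ensembl identifier for 22255 genes; the files' own build is unknown. The estimated counts were rounded, filtered with filterByExpr, TMM-scaled and fitted in R 4.3.3 with edgeR 4.0.16 (quasi-likelihood test, no covariate, Benjamini-Hochberg adjustment over all tested genes, threshold 0.05). Alternatives used limma 3.58.1 and DESeq2 1.42.0. Named genes were all members and Tox, list members past the threshold and the highest-mean member that was not, and genes of like pattern; others named with a count, such as Fyn, Slamf8, Zbtb16, F11r and Pea15a, were chosen after their values were seen. Members, lists and tests were chosen with earlier results of these data known. Same-numbered libraries of the 2 genotypes were not treated as pairs, since no label says that they share a litter or batch. A few results of the lists and of the likeness search are not reported here.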

Additional observations from a re-analysis of the deposited data

How the results depend on the processing

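Tox, Slamf6, Ly9, Cd48 and Sh2d1a kept their direction and their side of the threshold in all 17 alternatives. Slamf7 (-0.90) missed the threshold at -0.93 with upper-quartile factors, -0.96 with the filter keeping genes at 10 CPM or more in 3 libraries, -0.89 and -1.05 with limma on log2(FPKM + 1) and log2(FPKM + 0.1), and -0.87 with age as a covariate, so that in each of these 5 settings 0 members passed; it was -1.06 with 0 members without the shared Toxf/f library, and -0.95 to -0.70 with 0 to 1 members without each other library. Its call held with a replicate block (-0.92 with the shared Toxf/f library as number 1 and -0.89 as number 2, the second chosen after seeing the data). The sign of Cd84 turned with upper-quartile factors (-0.018) and the 10 CPM filter (-0.047), and the value was -0.049 without the shared Toxf/f library and -0.033 to 0.085 without each other library. Slamf1 turned to 0.017 under the block with number 2 and to 0.060 without the shared Toxf/f library, and was -0.24 to -0.026 without each other library. Of the innate-like list 0 genes passed with upper-quartile factors, the 10 CPM filter, either FPKM fit or age, 1 with limma-voom, 4 with either replicate block, and 0 to 3 with 1 library left out. Of the other SLAM family genes 1 passed, Cd2, with the replicate block and the shared library as number 1, and 0 in the other 16 alternatives. Of the neighbours 1 passed with DESeq2, 1 and 3 with the replicate blocks, 2 without Toxf/fPdcd1Cre replicate 1 and 0 without each other library. The 232 genes past the threshold became 417 with no filter, 67 with the 10 CPM filter, 359 with DESeq2, 113 and 101 on FPKM, 125 with age, 435 and 868 with the replicate blocks, 380 with the identical files counted separately, 49 without the shared Toxf/f library and 31 (without Toxf/f replicate 3) to 606 (without Toxf/fPdcd1Cre replicate 1) without each other library. The causes were not tested. Deviations of same-numbered libraries correlated at -0.030 (replicate 1), -0.0024 (replicate 2) and -0.042 (replicate 3) across 9347 genes. These values cannot test pairing. With 2 Toxf/f libraries the deviations of one mirror those of the other, and 1 library served as both replicate 1 and replicate 2. Same-numbered samples also share an age, and no label gives another link. With 135 to 342 counts per library, Slamf7 had the fewest counts of the members.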

Other observations

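The 2 deposited units did not scale alike for every member. FPKM per CPM on raw totals differed between the highest and the lowest library by 1.41-fold for Slamf7, 1.18-fold for Slamf6 and 1.16-fold for Cd84, and by 1.00-fold to 1.01-fold for Slamf1, Ly9, Cd48 and Sh2d1a. The median over genes with at least 100 counts in every library was 1.03-fold. For Slamf6 1 CPM was worth 0.461, 0.502 and 0.515 FPKM in Toxf/fPdcd1Cre and 0.437 and 0.473 FPKM in Toxf/f libraries, so the genotypes lay further apart in FPKM than in CPM.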
